A study of Homo sapiens with 12 samples.

Results

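Transcript levels after reversine were compared directly with those after MG132 in hTERT-RPE1, an established human cell line derived from the retinal pigment epithelium and made immortal with telomerase. The comparison rests on 6 of the 12 RNA-seq libraries of the series, chosen by the treatment in their labels. In the first group of 3, cells received 0.5 µM reversine for 24 h, were washed, and were collected after a further 48 h. In the second group of 3, cells received 1 µM MG132 for 24 h. A group of 3 untreated libraries, for which the labels give neither a vehicle nor a time, is set beside both. The remaining 3 libraries, from cells given 0.1 µM bafilomycin A1 for 6 h, entered the fit to share its estimate of the spread. All groups are the same line, and the labels name no further allele or clone. The exposure was 24 h for both, while the compound, its dose and the 48 h without compound before collection differ together between reversine and MG132 and cannot be told apart. Nothing in the labels says that replicate libraries are separate cultures. The spread behind each p-value is therefore that between libraries, and it may be technical.

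Reversine inhibits Mps1 (TTK), the kinase that holds dividing cells in mitosis until every chromosome is attached. Cells released from this checkpoint missegregate chromosomes and become aneuploid, a state known for p53 activity, slower proliferation and a load of unbalanced proteins. MG132 blocks the catalytic sites of the proteasome, the protease that removes ubiquitin-tagged proteins. Cells without proteasome activity are known to switch on HSF1 (the regulator of heat shock genes), NFE2L1 (the regulator of proteasome genes), NRF2 (the regulator of antioxidant genes) and ATF4 (a regulator of the integrated stress response). The question of the comparison is which changes after missegregation differ from those after proteasome inhibition.

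The values are FPKM, fragments scaled to transcript length and to the mapped fragments of the library, and their totals ran from 962891 to 2057717 per library over 53361 rows. Differences are given on the log2(FPKM + 1) scale as reversine minus MG132, so a positive value means higher after reversine. This scale understates changes of genes with low values. A gene was called when limma's adjusted p (Benjamini-Hochberg, over all 30712 genes tested) was under 0.05. The libraries fell into 2 technical classes by the slope of their values against transcript GC content. Reversine 1, MG132 2 and MG132 3 (and 1 bafilomycin A1 library) had falling slopes of -0.254, -0.42 and -0.417 log2 units per 10 percentage points, against 0.128, 0.18 and 0.071 in reversine 2, reversine 3 and MG132 1. Differences were therefore also taken inside each class, as reversine 1 minus the mean of MG132 2 and 3, and as the mean of reversine 2 and 3 minus MG132 1. MG132 2 and MG132 3 also listed 10150 and 9689 rows at exactly 0, against 889 to 2909 in the other 4 libraries compared. The shortest gene with a value above 0 measured 81 nt in both, against 52 to 60 nt in the other 4, so a value of 0 is not read as absence of the transcript. The 13 mitochondrially encoded genes took 20.2% of the total in MG132 3 and 4.2% to 9.0% in the other 5. Of the 15 markers of pigment epithelium looked up, 11 were among the genes tested. Of the 15, RPE65, TYR, DCT and TTR had means under 1 FPKM in the control, reversine and MG132 groups. The levels of BEST1, RLBP1, TYRP1, PMEL, LRAT and SERPINF1 are not given here, so the differentiated state of the cells is not judged. The transcription factors MITF and OTX2 and the keratins KRT8 and KRT18 were present in all 3 groups, and markers of endothelium summed to at most 8.63 FPKM in any library of the treatments compared. Fewer cells of a kind and less RNA per cell cannot be told apart in these bulk libraries.

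Reversine and MG132 left the cells with different transcriptomes: 2000 of 30712 genes were called, or 6.51%. Of these, 1082 were higher after reversine (3.52% of the genes tested) and 918 were higher after MG132 (2.99%). Differences of at least 2-fold made up 646 of the first and 497 of the second. Rows listed at 0 in some library made up 8527 of the genes tested, and none was called. Among the 14194 protein-coding genes tested, 986 were higher after reversine and 693 higher after MG132 (median difference -0.11). The median difference of the 22185 genes above 0 in all 12 libraries was -0.22, beside -0.01 over all genes tested. The list counts and medians below are to be read beside these values too. The 3 values of each group did not overlap for 1999 of the 2000 called genes. Among all genes tested, all reversine values lay above all MG132 values for 7.71%, and all MG132 values above all reversine values for 14.7%. The difference had the same sign inside both GC classes for all 2000 called genes, and for 23122 of all genes tested. Groups that do not overlap must give the same sign in both classes. For 1999 of the called genes the shared sign therefore adds nothing to the lack of overlap. Against the untreated libraries, 642 genes (2.09%) were called after reversine and 4549 (14.8%) after MG132, 2 comparisons that share the same controls. The mean of the controls lay nearer to reversine than to MG132 for 853 of the 918 genes higher after MG132 (92.9%). It also did so for 884 of the 1082 genes higher after reversine (81.7%), beside 75.0% of all genes tested. Of these 1082 genes, the control mean lay above both treatments for 535, between them for 502 and below both for 45. Of the 918 genes higher after MG132, it lay below both for 506, between them for 393 and above both for 19. Over all 30712 genes tested, these positions held 6077 above both, 13604 between and 11031 below both. A call as higher after a treatment therefore does not mean a rise above control.

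The number of calls depended strongly on which libraries entered the fit. With the 6 libraries of the comparison alone, 256 genes were called (0.834%), 254 of them among the 2000. List counts given below for these 6 libraries are to be read beside this share. Without the libraries of falling GC slope (the falling libraries), which leaves MG132 1 as the lone library of its group and assumes that it varies like the others, 945 were called (3.08%), 733 of them among the 2000. Leaving out MG132 1, the library unlike the other 2 of its group, gave 17101 calls of 30712 genes, 8851 higher after reversine and 8250 higher after MG132. Leaving out reversine 1 gave 2656 calls, and leaving out any other single library of the comparison gave 965 to 1097. Without MG132 1 its group holds only libraries of falling GC slope, so calls gained there cannot be told apart from the GC class. Counts given below without MG132 1 are to be read beside 8851 and 8250 of 30712 genes. In all, 836 genes were called in each of the 6 fits that left out 1 library. The split of the calls also moved with the scaling: with a median-ratio scaling between libraries, 1510 were higher after reversine and 626 higher after MG132. That scaling moved the median difference of all genes from -0.01 to 0.13.

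**Figure D1:**
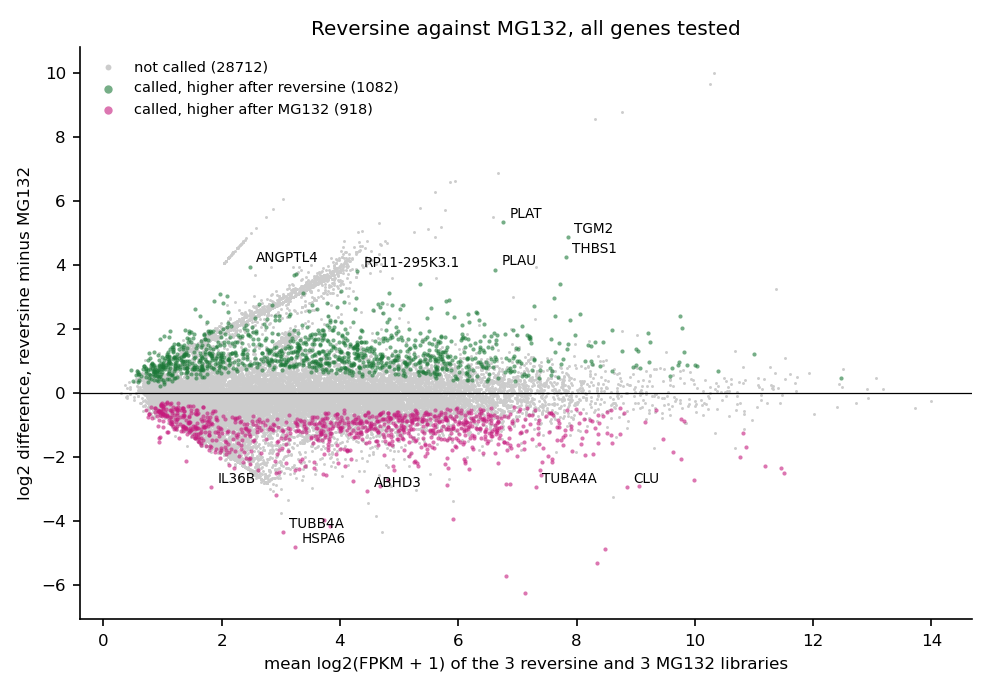
Each point is 1 of the 30712 genes tested, with the mean log2(FPKM + 1) of the 6 libraries on the x axis and the log2 difference of reversine minus MG132 on the y axis. Green points are the 1082 genes called higher after reversine and magenta points the 918 called higher after MG132; the grey diagonal bands above 0 hold rows listed at 0 in some libraries, of which none was called.

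Genes of the proteasome itself were higher after MG132 than after reversine. All 14 subunits of the catalytic core had lower levels after reversine than after MG132, and 7 of them were called. Their median difference was -1.07, beside -0.01 over all genes tested and -0.22 over the 22185 genes above 0 in all libraries. Of those 22185 genes, 7180 had a difference above 0. Of the 18 subunits of the regulatory particle, which recognises and unfolds ubiquitin-tagged proteins, 15 were called higher after MG132 and none higher after reversine, with a median of -1.17. Against control, the same medians were -0.11 and -0.26 after reversine and 0.93 and 0.94 after MG132. PSMD6, a non-ATPase subunit of the regulatory particle, had 76, 75.5 and 73.1 FPKM in the 3 reversine libraries and 208, 294 and 256 FPKM in the 3 MG132 libraries, beside 99, 83.5 and 95.2 FPKM in the controls. Every MG132 value lay above every reversine and control value, with a difference of -1.73 (SE 0.13, adjusted p 0.000109). The ATPase subunit PSMC4 read 73.3, 100.1 and 116 FPKM after reversine and 351, 296 and 287 FPKM after MG132, a difference of -1.70 (SE 0.16, adjusted p 0.000338). PSMC3, another ATPase, showed 109, 98.5 and 110.1 FPKM against 196, 219 and 209 FPKM, beside 149.7, 156 and 165 FPKM in the controls. For PSMC3 the controls lay between the treatments: it was called lower than control after reversine (-0.56, adjusted p 0.0165) and higher than control after MG132 (0.40, adjusted p 0.021). In the core, PSMB2 had 53.5, 52.2 and 54.5 FPKM after reversine and 106, 123 and 119.5 FPKM after MG132 (-1.11, SE 0.12, adjusted p 0.000698), and PSMB4 had 192, 258 and 268 and 537, 583 and 577 FPKM (-1.25, SE 0.16, adjusted p 0.00177). PSMD12 read 44.3, 38.9 and 39 FPKM after reversine and 72.4, 113 and 119 FPKM after MG132 (-1.26, SE 0.18, adjusted p 0.00336). Its call was lost with the 6 libraries alone (adjusted p 0.113) and without the falling libraries (adjusted p 0.074). The core count was 4 without MG132 2 or without MG132 3, 10 without MG132 1, and 4 without all falling libraries. The regulatory count ran from 13 without MG132 2 to 16 without MG132 1, and the median was -1.01 without the falling libraries. In the 6 libraries alone, 2 core and 4 regulatory subunits were called higher after MG132.

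Factors around the proteasome gave fewer calls. Of 20 activators and assembly factors, 2 were called higher after MG132 and 1 higher after reversine, with a median of -0.22. These counts were 1 and 0 when MG132 2, MG132 3, reversine 2 or reversine 3 was left out, and 7 were higher after MG132 without MG132 1. ZFAND2A (AIRAP), a stress-induced adaptor of the proteasome, had 26.5, 30.8 and 36.1 FPKM after reversine and 149.5, 177 and 169 FPKM after MG132, a difference of -2.38 (SE 0.18, adjusted p 0.000109) with no overlap. NFE2L1, the transcription factor of proteasome genes, read 179, 350.1 and 294 FPKM against 380.1, 226 and 194 FPKM, and the groups overlapped (0.05, adjusted p 0.906). POMP, the chaperone of proteasome assembly, read 63.1, 30 and 32.3 FPKM against 47.2, 167 and 169 FPKM and was not called (-1.46, adjusted p 0.0917). It was called without MG132 1 (adjusted p 0.00256) and with the GC class as a term (adjusted p 0.0159).

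Several genes of the ubiquitin system were higher after MG132. UBB, a polyubiquitin gene, had 843, 1178 and 1155 FPKM after reversine, 3042, 3638 and 3308 FPKM after MG132 and 994, 1094 and 960.0 FPKM in the controls. The MG132 mean was 3.14-fold that after reversine, and no value overlapped (-1.66, SE 0.14, adjusted p 0.000184). The deubiquitinases UCHL1 and USP14, of which USP14 acts on the proteasome, differed by -1.25 (SE 0.10, adjusted p 0.000179) and -1.34 (SE 0.12, adjusted p 0.000268). USP14 was called lower than control after reversine (-0.65, adjusted p 0.0249) and higher than control after MG132 (0.69, adjusted p 0.00495). In the list of 20 ubiquitin and conjugation genes 5 were called higher after MG132 and none higher after reversine, with a median of -0.39. That count was 11 without MG132 1 and 4 without the falling libraries.

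Cytosolic chaperones held several of the largest differences on the MG132 side. Heat shock genes carry, upstream of their start, inverted repeats of GAA that the factor HSF1 binds. The arrangements GAANNTTC and TTCNNGAA, each its own reverse complement and able to overlap the other, were searched in RefSeq promoters of build GRCh38.p14 (250 bases before to 50 after the start). Of the 43 tested genes of both chaperone lists, 37 had a promoter, and 20 of these held at least 1 match. Of the 21 called genes with a promoter, 14 did. At least 1 match lay in 13.5% of all 35116 promoters. That share is counted by promoter, and a gene may have more than 1, so it is not like for like with the list figures. The upstream stretches around the matches are shown for the inducible HSPA6 (chr1:161524330-161524508, plus strand, 3 matches) and the constitutive HSPA8 (chr11:123062149-123062386, minus strand, 4 matches), the chaperones with the smallest adjusted p that hold the motif. Capitals mark the matches, which overlap in places, and each stretch is written 5′ to 3′ along its gene.
HSPA6: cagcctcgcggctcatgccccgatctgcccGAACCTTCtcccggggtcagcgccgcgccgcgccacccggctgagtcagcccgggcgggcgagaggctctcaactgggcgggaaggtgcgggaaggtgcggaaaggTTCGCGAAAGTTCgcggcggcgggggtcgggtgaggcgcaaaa
HSPA8: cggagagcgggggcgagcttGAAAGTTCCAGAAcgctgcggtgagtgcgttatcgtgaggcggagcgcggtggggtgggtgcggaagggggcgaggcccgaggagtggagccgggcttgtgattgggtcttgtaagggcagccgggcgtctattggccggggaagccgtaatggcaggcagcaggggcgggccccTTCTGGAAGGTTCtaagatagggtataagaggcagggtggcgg

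HSPA6, an HSP70 gene that is nearly silent without stress, had 0.66, 0.74 and 0.97 FPKM in the reversine libraries, 68.8, 42 and 40.6 FPKM in the MG132 libraries and 0.32, 0.71 and 0.39 FPKM in the controls. No value after reversine reached 1 FPKM, and the difference from MG132 was -4.81 (SE 0.22, adjusted p 8.76e-06). HSPA8, the abundant constitutive HSP70, had 975, 1143 and 1075 FPKM after reversine, 5119, 5061 and 5135 FPKM after MG132 and 1600.3, 1498 and 1874 FPKM in the controls. Here the treatments lay on opposite sides of the controls: HSPA8 was called lower than control after reversine (-0.64, adjusted p 0.0111) and higher than control after MG132 (1.63, adjusted p 2.11e-05), and the direct difference was -2.26 (SE 0.10, adjusted p 8.46e-06). DNAJB1, an HSP40 that delivers clients to HSP70, read 78.1, 65 and 63.8 FPKM against 309, 478 and 451 FPKM (-2.54, SE 0.19, adjusted p 8.64e-05). HSPA9, the mitochondrial HSP70, read 199.6, 259 and 224 FPKM against 607, 716 and 676 FPKM (-1.55, SE 0.11, adjusted p 6.46e-05). The HSP90 gene HSP90AA1 read 555, 363 and 309 FPKM against 1713, 3299 and 3152 FPKM (-2.72, SE 0.31, adjusted p 0.00105). Its cochaperones AHSA1, which stimulates the ATPase of HSP90, and STIP1, which links HSP70 to HSP90, differed by -1.30 and -1.48 (SE 0.11 and 0.13, adjusted p 0.000189 and 0.000275). HSPH1, an exchange factor of HSP70, spread more, with 79.2, 32.8 and 29.8 FPKM after reversine and 166, 401 and 454 FPKM after MG132 (-2.84, SE 0.43, adjusted p 0.00471). The falling-slope library was the highest of its group for reversine and MG132 1 the lowest of its group, and the call was lost with the 6 libraries alone (adjusted p 0.131).

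The stress-inducible pair HSPA1A and HSPA1B needs its rows added up. Each symbol has 5 rows in the table, and the coding sequences are nearly identical, so reads can be divided between them. The row that GENCODE v29 also holds for HSPA1A read 3.21, 2.65 and 3.65 FPKM after reversine and 8.44, 6.97 and 5.89 FPKM after MG132 (-0.95, adjusted p 0.0265), and that for HSPA1B read 2.21, 8.51 and 14.1 and 331, 5.67 and 3.99 FPKM (-1.53, adjusted p 0.419). The single HSPA1A row lost its call without MG132 2, reversine 2 or reversine 3 (adjusted p 0.0657, 0.127 and 0.0632), and HSPA1B changed sign without MG132 1 (0.42). Summed over all 10 rows, the pair had 149.9, 235 and 259 FPKM after reversine, 9472, 5809.6 and 5602 FPKM after MG132 and 208, 228 and 229.9 FPKM in the controls, and the MG132 mean was 32.4-fold that after reversine. In a fit with the rows of each symbol summed, chosen after these rows were seen, the difference was -5.46 for HSPA1A (SE 0.24, adjusted p 9.44e-06) and -4.83 for HSPA1B (SE 0.26, adjusted p 2.04e-05). That fit called 1924 of 29783 genes (6.46%), 1906 of them among the 2000.

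Across the list of HSP70, HSP40 and HSP90 chaperones, 19 of 31 tested genes were called higher after MG132 and none higher after reversine, against 2.99% of all genes tested for the first direction. The median difference was -1.04, and the medians against control were 0.09 after reversine and 1.15 after MG132. The count was 9 without MG132 2, 24 without MG132 1 and 7 with the 6 libraries alone. The median was -0.98 without the falling libraries. Among 12 small heat shock proteins and BAG cochaperones, 4 were called higher after MG132 and 1 higher after reversine (median -0.85). The 1 call higher after reversine was lost without the falling libraries and when MG132 2, MG132 3, reversine 2 or reversine 3 was left out. HSPB8, which works with BAG3 in the removal of misfolded proteins, had 45.1, 40.9 and 37.1 FPKM after reversine, 247, 321 and 326 FPKM after MG132 and 13.6, 15.8 and 14.5 FPKM in the controls (-2.82, SE 0.15, adjusted p 2.03e-05). HSPB8 was called above control after reversine as well (1.42, adjusted p 0.00166), by less than after MG132 (4.24, adjusted p 2.29e-06). BAG3 itself read 119.8, 195 and 197 FPKM against 617, 380.0 and 363 FPKM (-1.40, SE 0.25, adjusted p 0.0108, lost with the 6 libraries alone at adjusted p 0.166). Of 14 genes of the TRiC chaperonin, which folds actin and tubulin, and of its partner prefoldin, 3 were called higher after MG132 (median -0.53, 1 without MG132 2 or MG132 3 and 10 without MG132 1). TCP1, a TRiC subunit, had 179, 235 and 222 FPKM after reversine, 527, 509 and 483 FPKM after MG132 and 364, 345 and 409 FPKM in the controls, and was called lower than control after reversine (-0.82, adjusted p 0.0052).

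**Figure D2:**
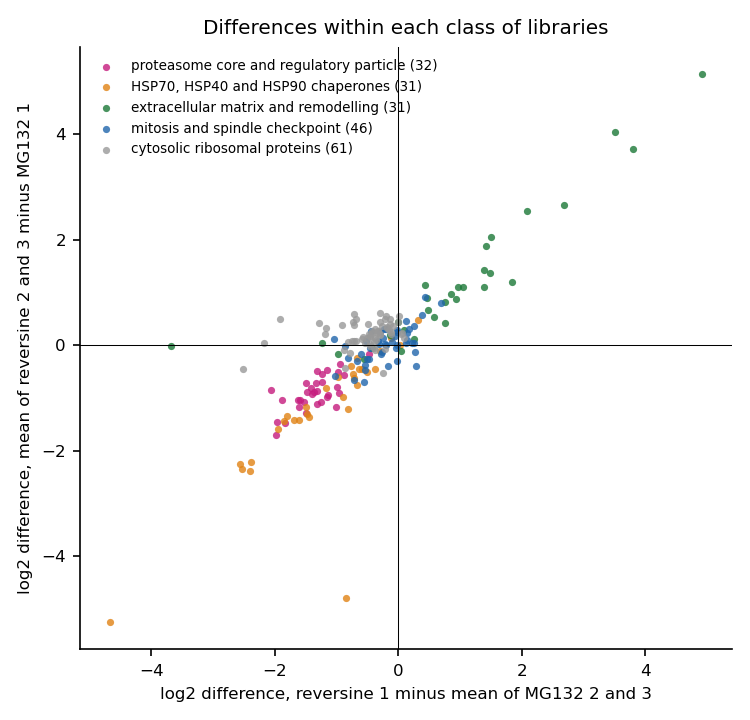
Each point is a tested gene of 1 of 5 lists, with the log2 difference of reversine 1 minus the mean of MG132 2 and 3 (falling GC slope) on the x axis and that of the mean of reversine 2 and 3 minus MG132 1 (rising slope) on the y axis. Proteasome and chaperone genes lie mostly below 0 and matrix genes mostly above 0 on both axes, while the medians of mitosis genes (-0.20 and 0.03) and ribosomal protein genes (-0.40 and 0.22) differ in sign between the axes.

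Several chaperone and stress genes of the endoplasmic reticulum (ER), where secreted proteins fold, were likewise called higher after MG132. Of 26 ER chaperones and ER stress genes, 9 were called higher after MG132 and none higher after reversine, with a median of -0.75 (0.15 against control after reversine, 1.03 after MG132). The count was 5 without MG132 2, 17 without MG132 1 and 4 with the 6 libraries alone. The median was -0.64 without the falling libraries. HSPA5 (BiP), the main ER chaperone, had 226, 181 and 177 FPKM after reversine, 1148, 1604 and 1679.5 FPKM after MG132 and 169, 173 and 164 FPKM in the controls. The MG132 mean was 7.58-fold that after reversine, with no overlap (-2.91, SE 0.15, adjusted p 2.03e-05). HYOU1, an HSP70 relative in the ER, differed by -1.49 (SE 0.12, adjusted p 0.000183). HERPUD1, a component of ER-associated degradation, had 62.8, 68.3 and 59.4 FPKM after reversine, 156, 197 and 208 FPKM after MG132 and 32.4, 32.5 and 29.5 FPKM in the controls. It was called above control after both, by 0.99 after reversine (adjusted p 0.00652) and 2.53 after MG132 (adjusted p 1.26e-05).

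In the integrated stress response, 8 of 29 regulators and targets of ATF4 were called higher after MG132 and 1 higher after reversine (median -0.31). These counts were 5 and 1 without MG132 2 or MG132 3, 11 and 5 without MG132 1, and 3 and 0 with the 6 libraries alone. The median of the list lay below control after both treatments, at -0.30 after reversine and -0.16 after MG132. DDIT3 (CHOP), the death-promoting factor of this response, rose above control after both treatments and further after MG132: it had 20.3, 23.9 and 21.4 FPKM in the controls, 67.3, 70.5 and 78.1 FPKM after reversine and 319, 422 and 421 FPKM after MG132. The direct difference was -2.40 (SE 0.14, adjusted p 2.92e-05), and those against control were 1.67 (adjusted p 0.000569) and 4.08 (adjusted p 2.29e-06). ATF4 read 263, 235 and 229.6 FPKM against 503, 638 and 669 FPKM (-1.30, SE 0.13, adjusted p 0.000528). PPP1R15A (GADD34), which reverses the block of translation, differed by -1.34 (SE 0.13, adjusted p 0.000401). ATF3, another stress-induced factor, had 15.2, 12.1 and 10.1 FPKM after reversine and 10.7, 14.9 and 16.2 FPKM after MG132, above 1.95, 2.42 and 2.27 FPKM in the controls, and the treatments overlapped (-0.15, SE 0.23, adjusted p 0.636). ALDH18A1, an enzyme of proline synthesis, was the gene called in the other direction, with 59, 72.5 and 73.6 FPKM after reversine and 34.9, 37 and 28.5 FPKM after MG132 (1.01, adjusted p 0.00543). That call was lost with the 6 libraries alone (adjusted p 0.107) and without the falling libraries (adjusted p 0.074). Of 20 aminoacyl-tRNA synthetases, which charge tRNAs, 4 were called higher after MG132 and none higher after reversine (median -0.51, 12 without MG132 1).

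**Figure D3:**
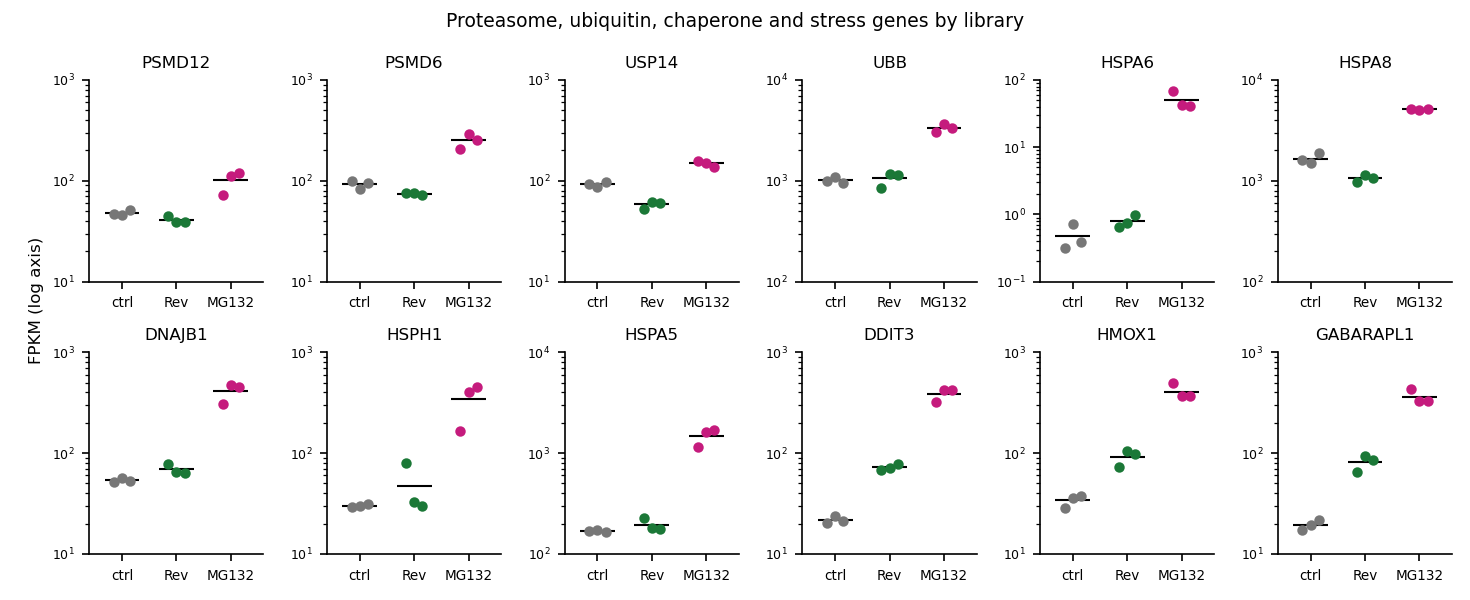
FPKM on log axes of 12 proteasome, ubiquitin, chaperone and stress genes in the 3 control (grey), 3 reversine (green) and 3 MG132 (magenta) libraries; points are libraries, in the order 1 to 3, and bars are group means. In each panel all 3 MG132 libraries lie above all control and reversine libraries. DDIT3, HMOX1 and GABARAPL1 also lie higher after reversine than in the controls and were called so. The 3 reversine libraries of DNAJB1 and HSPA5 lie above the 3 controls too, without a call.

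Antioxidant genes followed the same direction. Of 23 targets of NRF2, 11 were called higher after MG132 and none higher after reversine (median -0.62, -0.55 without the falling libraries). The first count was 9 without MG132 2, MG132 3 or reversine 2, 14 without MG132 1 and 3 with the 6 libraries alone. Without MG132 1 or reversine 1, 1 was called higher after reversine. With the GC class as a term, 16 were higher after MG132 and 2 higher after reversine. HMOX1, which degrades haem, had 73.3, 105 and 98.2 FPKM after reversine, 490.0, 365 and 368 FPKM after MG132 and 28.6, 35.8 and 37.5 FPKM in the controls, called above control after both (1.41, adjusted p 0.00503 and 3.54, adjusted p 1.07e-05) and -2.13 between the treatments (SE 0.19, adjusted p 0.00023). MAFG, the small MAF partner of NRF2, and the NRF2 target OSGIN1 differed by -1.75 and -2.17 (SE 0.13 and 0.23, adjusted p 0.000109 and 0.000562). The core of the antioxidant response element, TGACNNNGC, was searched on both strands in the proteasome promoters. Of the 32 core and regulatory genes, 27 had a promoter, and 8 of these held the core. Of the 21 called genes with a promoter, 6 did. It lay in 13.3% of all promoters, a share counted by promoter and not by gene. Of 9 metallothioneins, which bind zinc and copper, MT1E was called, higher after reversine (949, 1691 and 1751 against 435, 768 and 568 FPKM, 1.29, adjusted p 0.0155). It was not called without MG132 3, without reversine 2 or without reversine 3 (adjusted p 0.0621, 0.07 and 0.0669).

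GABARAPL1 and SQSTM1, genes of autophagy, rose above control after both treatments and more after MG132. GABARAPL1, a member of the family of ubiquitin-like proteins that coat autophagosomes, had 17.4, 19.2 and 21.9 FPKM in the controls, 65.1, 92.8 and 85.7 FPKM after reversine and 432, 329.6 and 331 FPKM after MG132. All 3 groups were separate, with 1.99 against control after reversine (adjusted p 0.000628), 4.15 after MG132 (adjusted p 3.21e-06) and -2.15 between the treatments (SE 0.17, adjusted p 0.000127). SQSTM1 (p62), the receptor that carries ubiquitin-tagged cargo to autophagosomes, had 383, 372 and 373 FPKM in the controls, 670.4, 1047 and 943 FPKM after reversine and 4551, 3026 and 2938 FPKM after MG132. The direct difference was -1.98 (SE 0.20, adjusted p 0.000444), with an adjusted p of 0.0505 in the 6 libraries alone. Of 12 autophagy receptors 4, and of 33 genes of the LC3 and GABARAP family and the autophagy machinery 5, were called higher after MG132, and none of either list higher after reversine (medians -0.19 and -0.51). The first count was 1 without MG132 2, MG132 3 or reversine 3. The second was 3 without MG132 2, MG132 3, reversine 2 or reversine 3 and 17 without MG132 1.

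Lysosomal genes divided. Of 40 lysosomal hydrolases and lumenal proteins, 5 were called in each direction (median 0.22). The count higher after reversine was 2 without reversine 2 and 10 without MG132 1, and the count higher after MG132 was 3 without MG132 2. GLA, an alpha-galactosidase, had 28.9, 22.9 and 21.5 FPKM after reversine and 87.8, 150.2 and 150.5 FPKM after MG132 (-2.33, SE 0.28, adjusted p 0.00133). FUCA1, a fucosidase, had 16.3, 21.6 and 23.2 FPKM after reversine and 6.67, 6.49 and 6.43 FPKM after MG132, beside 7.94, 8.95 and 8.14 FPKM in the controls (1.49, SE 0.18, adjusted p 0.00131, 0.0903 with the 6 libraries alone). NPC1, the cholesterol exporter of lysosomes, had 25.2, 35.1 and 35.1 FPKM against 129, 103 and 97.4 FPKM (-1.76, SE 0.16, adjusted p 0.000321). GPNMB, a lysosomal glycoprotein, was the reverse, with 125, 119 and 122 FPKM after reversine, 63.1, 66.6 and 69.3 FPKM after MG132 and 65.4, 65.8 and 62.2 FPKM in the controls (0.87, SE 0.09, adjusted p 0.000681, 0.0522 with the 6 libraries alone). Of 18 lysosomal membrane proteins 1 was called in each direction (median -0.25), as in the 11 MiT/TFE factors and feedback genes (median -0.25, 0.01 without the falling libraries), against 3.52% of all genes tested called higher after reversine and 2.99% higher after MG132. Without MG132 1, 2 of each list were higher after reversine, and 4 membrane and 3 MiT/TFE genes higher after MG132. Of 16 subunits of the V-ATPase, the lysosomal proton pump, 3 were called higher after MG132 (median -0.34, 1 without MG132 2, MG132 3 or reversine 2 and 8 without MG132 1). TFEB, the main activator of lysosomal genes, read 11.6, 23.7 and 31.5 FPKM after reversine and 18.3, 89.4 and 30.4 FPKM after MG132 and was not called (-0.81, adjusted p 0.384).

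Several DNA replication genes were lower after MG132 than after reversine, and the median of the list lay below control after both. Against control the median of 42 replication and S-phase genes was -1.43 after reversine and -1.43 after MG132. Directly, 8 were called higher after reversine and 1 higher after MG132, with a median of 0.19 beside -0.01 over all genes tested and against 3.52% and 2.99% called. MCM3, a subunit of the replicative helicase, had 89.7, 90.7 and 90 FPKM in the controls, 24.2, 23.9 and 25.4 FPKM after reversine and 11.4, 10.3 and 11.9 FPKM after MG132. The 3 groups did not overlap (1.06, SE 0.11, adjusted p 0.000475), though the call was lost with the 6 libraries alone (adjusted p 0.109). The helicase subunits MCM6 and MCM2 differed by 1.38 and 0.98 (SE 0.21 and 0.16, adjusted p 0.00463 and 0.00763), with adjusted p of 0.204 and 0.21 in the 6 libraries alone. RRM2, a subunit of the enzyme that makes deoxynucleotides, read 351, 324 and 312 FPKM in the controls, 62.4, 72.3 and 61 FPKM after reversine and 53, 69.2 and 67.8 FPKM after MG132. The treatments overlapped for RRM2, with a difference of 0.05 (SE 0.12, adjusted p 0.757). The counts in the list were 5 and 0 when MG132 2, MG132 3, reversine 2 or reversine 3 was left out and 12 and 7 without MG132 1. Without reversine 1, 12 were higher after reversine, and none of the list was called with the 6 libraries alone.

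Genes of mitosis, the process that reversine acts on, gave 1 call between the treatments. Against control the median of 46 genes of mitosis and the spindle checkpoint was -1.11 after reversine and -0.69 after MG132. That gene was CCNB2, higher after MG132, against 2.99% of all genes tested, and the median of -0.35 was 0.03 without the falling libraries. CCNB2, a mitotic cyclin, had 66.5, 51.4 and 45.4 FPKM in the controls, 16.3, 12.4 and 12.5 FPKM after reversine and 20.1, 25.4 and 29.1 FPKM after MG132, with no overlap (-0.81, SE 0.19, adjusted p 0.0389). The call was lost without reversine 2, reversine 3, MG132 2 or MG132 3 (adjusted p 0.13, 0.131, 0.161 and 0.185). Without MG132 1, 14 genes of the list were called higher after MG132, beside 8250 of all 30712 genes tested. Promoters of mitotic genes are known for the CHR element, through which they are silenced in resting cells. Its letters TTTGAA, on either strand, lay in a promoter of 28 of the 39 genes of this list with a promoter. The element lay in 15.2% of all promoters, a share counted by promoter and not by gene. The CCNB2 stretch that holds it (chr15:59105087-59105145, plus strand, GRCh38.p14, RefSeq) has the match in capitals.
CCNB2: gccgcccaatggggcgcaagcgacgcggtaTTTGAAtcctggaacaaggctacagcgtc

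TTK, which encodes the target of reversine, had 7.89, 4.94 and 4.33 FPKM after reversine and 4.3, 11.8 and 11.9 FPKM after MG132 and was not called (-0.55, adjusted p 0.298, 0.0306 without MG132 1). Its values followed the GC class: reversine 1 was the highest of its group, and MG132 1, at the level of reversine 3, the lowest of its group. TOP2A and MKI67, markers of cycling cells, showed the same order, with 26, 10.3 and 6.64 and 7.44, 27.5 and 34.5 FPKM for TOP2A (-0.63, adjusted p 0.443) and 11.6, 3.73 and 3.15 and 3.84, 9.22 and 9.7 FPKM for MKI67 (-0.37, adjusted p 0.551). CCNB1, the cyclin of mitotic entry, read 34.4, 29.9 and 30 FPKM against 39.2, 47.6 and 53.6 FPKM, without overlap and without a call (-0.55, SE 0.19, adjusted p 0.0917, 0.0263 without MG132 1), beside 85.8, 98.5 and 86.7 FPKM in the controls. Between the treatments CCNB1 was called with the GC class as a term (adjusted p 0.0385), but not with correction for GC content and length (adjusted p 0.0991). CCNB1 was called lower than control after reversine (-1.49, adjusted p 0.00395) and after MG132 (-0.94, adjusted p 0.0095). Of 15 CDK inhibitors and D-type cyclins with their partners, 1 was called: CDKN2A, which encodes the inhibitors p16 and ARF, with 237, 739 and 807 FPKM after reversine and 196, 81.3 and 76.5 FPKM after MG132, beside 855, 667 and 947 FPKM in the controls (2.27, SE 0.52, adjusted p 0.0336). Without reversine 1, 4 of the list were called higher after reversine. CDKN2A was not called without reversine 2 or reversine 3 or without MG132 2 or MG132 3 (adjusted p 0.13, 0.131, 0.133 and 0.136). CCND1, the cyclin of G1, read 494, 1490.2 and 1243 FPKM against 661, 182 and 174 FPKM and was not called (1.81, SE 0.57, adjusted p 0.0917). It was called without MG132 1 (adjusted p 0.004) and without reversine 1 (adjusted p 0.042). Correction for GC content and length (adjusted p 0.0443) and the GC class as a term (adjusted p 0.00484) also gave a call, though not every alternative did.

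Regulators and targets of p53 had medians against control of 0.90 after reversine and 0.59 after MG132 over 33 tested genes. Directly, 5 were called higher after reversine and 1 higher after MG132 (median 0.44). CDKN1A (p21), which stops the cell cycle, had 215, 189 and 253 FPKM in the controls, 618, 1198 and 1082 FPKM after reversine and 762, 489 and 434 FPKM after MG132. It was called above control after both (2.09, adjusted p 0.0063 and 1.32, adjusted p 0.0145), while the treatments overlapped and did not pass the direct test (0.77, SE 0.29, adjusted p 0.103). It was called without reversine 1 (adjusted p 0.0375) and without MG132 1 (adjusted p 0.0255). Correction for GC content and length (adjusted p 0.0359) and the GC class as a term (adjusted p 0.0366) also gave a call, though not every alternative did. MDM2, the ubiquitin ligase of p53, read 114, 63.1 and 62.4 FPKM after reversine and 63.9, 208 and 233 FPKM after MG132, and the groups overlapped (-0.92, adjusted p 0.196). Without MG132 1, MDM2 was called higher after MG132 (adjusted p 0.00332). GDF15, a secreted stress hormone, had 0.57, 0.33 and 0.36 FPKM in the controls, 6.33, 12.7 and 12.7 FPKM after reversine and 6.15, 4.88 and 5.8 FPKM after MG132, and did not pass the direct test (0.76, SE 0.25, adjusted p 0.0917). It did without reversine 1 (adjusted p 0.00561), without MG132 1 (adjusted p 0.0343) and with correction for GC content and length (adjusted p 0.0167). Among the called members, TP53I3 had 44.3, 60.3 and 64.4 FPKM after reversine and 16.2, 17.8 and 15.9 FPKM after MG132 (1.69, SE 0.15, adjusted p 0.000268). BTG2, an antiproliferative gene, had 16.7, 17.1 and 18 FPKM after reversine and 5.56, 5.61 and 4.79 FPKM after MG132, beside 3.17, 3.26 and 3.12 FPKM in the controls (1.53, SE 0.18, adjusted p 0.00101, 0.0757 with the 6 libraries alone). SESN1 and SESN2, sestrins that restrain the growth kinase mTORC1, went opposite ways: SESN1 read 17.2, 19.7 and 18 and 5.7, 8.27 and 7.63 FPKM (1.25, adjusted p 0.00424), and SESN2, also an ATF4 target, 19, 23.4 and 23.3 and 55.9, 45.1 and 44.5 FPKM (-1.11, adjusted p 0.00368). Both sestrin calls were lost with the 6 libraries alone (adjusted p 0.141 and 0.0931). Without MG132 1, 12 of the list were called higher after reversine and 4 higher after MG132. These counts were 1 and 0 with the 6 libraries alone.

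In the BCL2 family, which decides on cell death at mitochondria, 2 of 14 genes were called in each direction (median 0.43). BMF, a death-promoting member, had 17.7, 25.1 and 21.2 FPKM after reversine, 4.15, 4.29 and 4.56 FPKM after MG132 and 13.7, 11.5 and 16.4 FPKM in the controls (2.05, SE 0.19, adjusted p 0.000352). BCL2L1, which encodes the protective BCL-XL, had 116, 135 and 131 FPKM after reversine and 74, 69.9 and 71.8 FPKM after MG132 (0.81, SE 0.09, adjusted p 0.000955). HRK, another death-promoting member, was on the other side, with 1.83, 1.39 and 2.3 against 5.21, 6.66 and 7.88 FPKM (-1.41, SE 0.19, adjusted p 0.00226). With the 6 libraries alone the calls of BCL2L1 and HRK were lost (adjusted p 0.0674 and 0.174). Without MG132 1, 7 members were called higher after reversine, and 1 was higher after MG132 when MG132 2, MG132 3, reversine 2 or reversine 3 was left out and none without the falling libraries.

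Inflammatory genes differed gene by gene. Of 23 NF-kB, cytokine and chemokine genes, 5 were called higher after reversine and 2 higher after MG132 (median 0.24). IL1B, the cytokine interleukin-1 beta, had 119, 151 and 129 FPKM after reversine, 11.1, 12 and 11.8 FPKM after MG132 and 19, 16.9 and 19.2 FPKM in the controls. The reversine mean was 11.5-fold that after MG132 (3.40, SE 0.15, adjusted p 8.76e-06), and IL1B was called above control after reversine (2.79, adjusted p 0.000108) and below it after MG132 (-0.62, adjusted p 0.0252). CCL2, which attracts monocytes, had 5.68, 4.99 and 4.65 FPKM after reversine and 0.76, 0.87 and 1.14 FPKM after MG132 (1.67, SE 0.15, adjusted p 0.000294). CXCL3, which attracts neutrophils, was higher after MG132, with 3.33, 2.75 and 5.23 FPKM against 14.5, 14.9 and 16 FPKM (-1.79, SE 0.20, adjusted p 0.000856, 0.107 with the 6 libraries alone and 0.0659 without the falling libraries). CCL26 (eotaxin-3), which lies outside the lists and was chosen after its values were seen, has 2 rows, whose sum read 3.98, 4.8 and 5.68 FPKM after reversine and 94.5, 123 and 116 FPKM after MG132 (-4.27, SE 0.22, adjusted p 1.95e-05 with rows summed). IL8 had 30.3, 20.1 and 17.5 FPKM after reversine and 2.31, 9 and 9 FPKM after MG132, without overlap, and missed the threshold (1.73, SE 0.44, adjusted p 0.0508, 0.0196 without MG132 1). IL6 had 8.79, 6.72 and 6.76 FPKM against 3.39, 4.31 and 4.19 FPKM and was not called (0.76, SE 0.21, adjusted p 0.0743, 0.039 without MG132 1). Correction for GC content and length gave a call for IL8 and IL6 (adjusted p 0.000522 and 0.0067). So did the GC class as a term (adjusted p 0.00108 and 0.0256), though not every alternative did. The count higher after reversine was 3 without reversine 2 or MG132 2 and 9 without MG132 1, and that higher after MG132 was 1 without MG132 2 or MG132 3 and 0 without the falling libraries.

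Of 24 interferon-stimulated genes, 7 were called higher after reversine and 2 higher after MG132, with a median of 0.60 (0.52 against control after reversine and 0.11 after MG132). IFI6 had 37.6, 42.9 and 39.2 FPKM after reversine, 7.35, 10.1 and 10.8 FPKM after MG132 and 13.5, 14.4 and 16.5 FPKM in the controls (1.99, SE 0.18, adjusted p 0.000268). The factor IRF1 had 29.4, 29 and 29.4 FPKM against 10.4, 12.4 and 11.8 FPKM (1.28, SE 0.15, adjusted p 0.00125, 0.0628 with the 6 libraries alone). STAT2, a subunit of the factor that interferon activates, went the other way, with 84, 71.6 and 60.9 FPKM after reversine, 127, 157 and 133 FPKM after MG132 and 31.4, 27.4 and 31.8 FPKM in the controls (-0.94, SE 0.14, adjusted p 0.00479, 0.116 with the 6 libraries alone and 0.0829 without the falling libraries). The median was 0.65 without the falling libraries, and 5 were called higher after MG132 without MG132 1. Only 1 was called higher after reversine and none higher after MG132 with the 6 libraries alone. In the list of 15 genes of MHC class I presentation and the immunoproteasome, 2 were called higher after reversine, and 3 when the rows of each symbol were summed (median -0.02 and 0.40). The count of 2 was 1 when MG132 2, MG132 3, reversine 2 or reversine 3 was left out and 5 without MG132 1 or reversine 1. PSMB10, PSMB8 and PSMB9 encode the catalytic subunits that replace those of the standard proteasome in the immunoproteasome. PSMB10 had 31.8, 40.7 and 38.4 FPKM after reversine, 11.4, 11.3 and 11.9 FPKM after MG132 and 39.9, 40.9 and 40.7 FPKM in the controls (1.59, SE 0.17, adjusted p 0.000669), a direction opposite to that of the standard core subunits. The 8 rows of PSMB8 summed to 37, 58.1 and 61.6 FPKM after reversine and 23.9, 18.1 and 20.2 FPKM after MG132 (1.27, SE 0.19, adjusted p 0.00454). The 8 rows of PSMB9 summed to 20.7, 40.3 and 39.6 and 16.5, 15.3 and 17.2 FPKM (0.93, SE 0.25, adjusted p 0.0584, not called). TAP1, the peptide transporter of this pathway, read 20, 27.4 and 26.2 FPKM after reversine and 14, 12.3 and 11.2 FPKM after MG132 over its 8 summed rows (0.91, SE 0.17, adjusted p 0.0121).

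Extracellular matrix genes were the clearest group on the reversine side. Of 31 tested matrix and remodelling genes, 15 were called higher after reversine and none higher after MG132, against 3.52% and 2.99% of all genes tested, with a median of 1.00. The medians against control were 0.19 after reversine and -0.71 after MG132. The count was 10 without MG132 2, without MG132 3 or without reversine 2, 22 without MG132 1, 13 without the falling libraries and 5 with the 6 libraries alone, and 3 genes were called higher after MG132 without MG132 1. Both plasminogen activators, the proteases that start the breakdown of fibrin and matrix, were included. PLAT (tPA) had 430.2, 859 and 889.8 FPKM after reversine, 23.8, 12.8 and 13.6 FPKM after MG132 and 401, 324 and 409 FPKM in the controls. It had the largest difference of the genes named on this side, 5.34 (SE 0.31, adjusted p 2.92e-05), and its reversine mean was 43.4-fold that after MG132. PLAU (uPA) had 298, 422 and 419 FPKM after reversine, 24.7, 24.3 and 25.8 FPKM after MG132 and 264, 228 and 323 FPKM in the controls (3.86, SE 0.16, adjusted p 8.32e-06). SPARC, a matrix glycoprotein, had 1558, 2311 and 2190.5 FPKM after reversine and 383, 316 and 421 FPKM after MG132 (2.42, SE 0.16, adjusted p 6.37e-05). TIMP3, an inhibitor of metalloproteinases, had 31.8, 29.9 and 26.9 FPKM after reversine and 3.62, 3.96 and 4.21 FPKM after MG132 (2.63, SE 0.15, adjusted p 2.69e-05). THBS1 (thrombospondin-1), an adhesive matrix protein, had 514, 1402 and 1331 FPKM after reversine, 103, 35 and 36.5 FPKM after MG132 and 2391, 1542 and 2436 FPKM in the controls, with reversine 1 the lowest of its group (4.25, SE 0.54, adjusted p 0.00174, 0.0589 with the 6 libraries alone).

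Genes that report signalling to the matrix and from growth factors differed in both directions. Of 18 targets and factors of YAP/TAZ and TGF-beta, 5 were called higher after reversine and 1 higher after MG132 (median 0.64). The first count was 2 without MG132 2 and 10 without MG132 1, and the second was 3 without MG132 1. They were 1 and 0 with the 6 libraries alone. ID1, an inhibitor of differentiation driven by BMP signals, had 189, 172 and 209.7 FPKM in the controls, 46.6, 76.4 and 74.7 FPKM after reversine and 9.59, 8.94 and 7.34 FPKM after MG132, called below control after both and 2.77 between them (SE 0.19, adjusted p 6.97e-05). SMAD6, an inhibitor of BMP signalling, had 5.61, 8.12 and 8.14 FPKM against 1.08, 1.01 and 0.99 FPKM (2.02, SE 0.23, adjusted p 0.000886, 0.0555 with the 6 libraries alone). CYR61, a YAP target, was the gene higher after MG132, with 228, 302 and 294 FPKM against 499, 422 and 423 FPKM (-0.71, SE 0.12, adjusted p 0.00764, 0.171 with the 6 libraries alone). Its call was also lost with median-ratio scaling (adjusted p 0.0595). Of 19 immediate early genes, 4 were called in each direction (median -0.01), with 2 higher after reversine without MG132 3, 2 higher after MG132 without MG132 2, and 7 higher after reversine without MG132 1. EGR1, a factor induced within minutes of growth signals, had 5.49, 7.25 and 5.8 FPKM after reversine, 0.44, 0.23 and 0.4 FPKM after MG132 and 0.83, 0.84 and 0.78 FPKM in the controls (2.40, SE 0.12, adjusted p 1.56e-05). The phosphatase genes DUSP1 and DUSP6, which switch MAP kinases off, went opposite ways. DUSP1 had 42.6, 50.6 and 48.9 FPKM after reversine and 212, 226 and 209.7 FPKM after MG132 (-2.17, SE 0.10, adjusted p 1.2e-05), and DUSP6 had 50, 116 and 109 and 15.7, 10.9 and 10 FPKM (2.75, SE 0.32, adjusted p 0.00109, 0.0616 with the 6 libraries alone). MYC read 45.4, 78.5 and 61.9 FPKM after reversine and 137, 98.7 and 90.5 FPKM after MG132 and did not pass the test (-0.81, SE 0.23, adjusted p 0.073, 0.042 without MG132 1). Correction for GC content and length (adjusted p 0.00245) and the GC class as a term (adjusted p 0.00116) also gave a call, though not every alternative did.

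**Figure D4:**
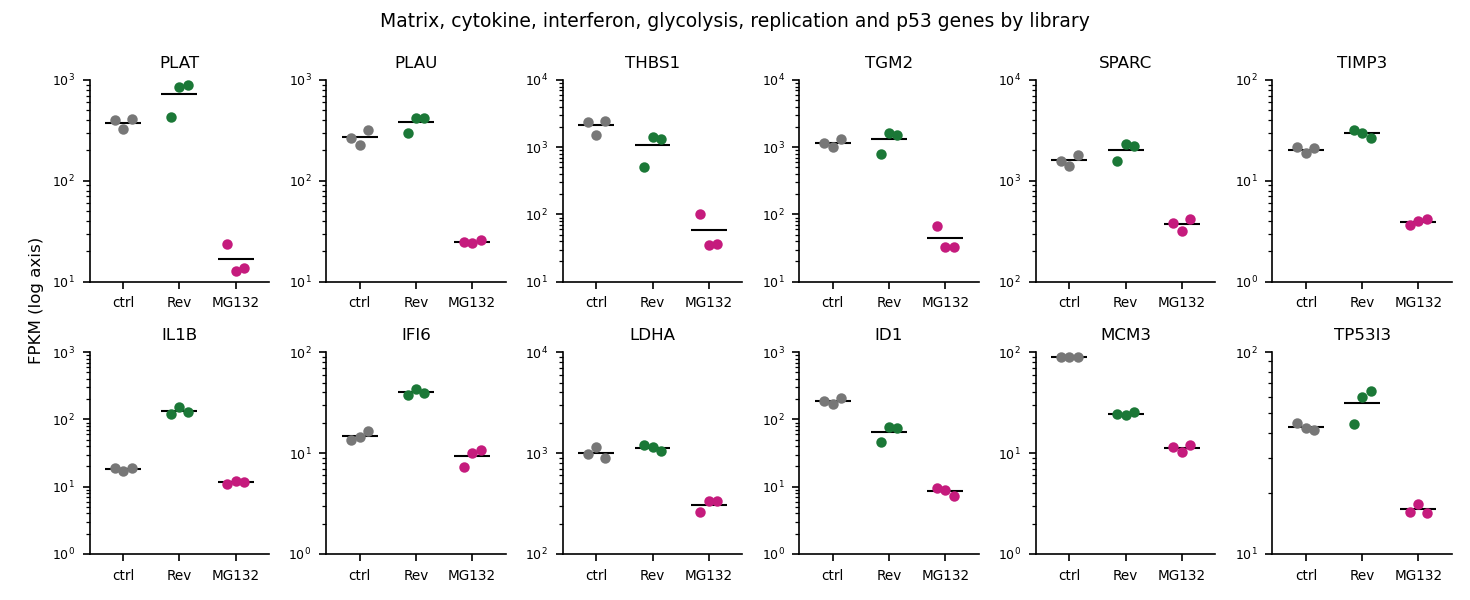
FPKM on log axes of 12 matrix, cytokine, interferon, glycolysis, replication and p53 genes in the 3 control (grey), 3 reversine (green) and 3 MG132 (magenta) libraries; points are libraries, in the order 1 to 3, and bars are group means. All 3 reversine libraries lie above all 3 MG132 libraries in each panel, while the controls lie near reversine for PLAU, TGM2 and LDHA, near MG132 for IL1B, and above both for THBS1, ID1 and MCM3.

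Of 29 glycolysis genes and targets of the hypoxia factor HIF, 7 were called higher after reversine and 1 higher after MG132 (median 0.45, against control 0.29 after reversine and -0.49 after MG132). LDHA, which makes lactate, had 1194, 1154 and 1037 FPKM after reversine, 258, 335 and 332 FPKM after MG132 and 990.0, 1155 and 885 FPKM in the controls (1.88, SE 0.18, adjusted p 0.000352). The glycolytic enzyme TPI1 had 1039, 1157 and 1259 FPKM against 625, 624 and 616 FPKM (0.88, SE 0.09, adjusted p 0.000665). ANGPTL4, a secreted inhibitor of lipoprotein lipase, had 16.1, 24.1 and 23.5 FPKM after reversine, 0.56, 0.3 and 0.4 FPKM after MG132 and 3.44, 2.25 and 3.37 FPKM in the controls, called above control after reversine (adjusted p 0.00122) and below it after MG132 (adjusted p 0.00343), and between them (3.95, SE 0.24, adjusted p 4.26e-05). The count higher after reversine was 12 without MG132 1 and 3 with the 6 libraries alone. The call on the MG132 side was lost without MG132 2 or reversine 3 and with the 6 libraries alone. TXNIP, which restrains glucose uptake, had 36.2, 26.8 and 26.3 FPKM after reversine, 5.58, 8.15 and 10.4 FPKM after MG132 and 6.37, 6.28 and 5.19 FPKM in the controls (1.79, SE 0.24, adjusted p 0.00244, 0.0928 with the 6 libraries alone). Of 23 genes of cholesterol synthesis and uptake, 5 were called higher after reversine and none higher after MG132 (median 0.06), a count of 1 when MG132 2, MG132 3, reversine 2 or reversine 3 was left out and of 8 without MG132 1 or reversine 1, with 3 higher after MG132 without MG132 1. TM7SF2, a sterol reductase, had 21.9, 34.6 and 33.5 FPKM against 9.66, 10.7 and 11.2 FPKM (1.40, SE 0.20, adjusted p 0.00307, 0.111 with the 6 libraries alone). None of the 23 cholesterol genes was called with those 6 libraries.

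Other genes with the largest differences were named by size among those called in each fit that left out 1 library. On the reversine side, TGM2 (transglutaminase 2, a crosslinking enzyme) had 779.9, 1631 and 1531 FPKM after reversine, 68.1, 32.4 and 32.3 FPKM after MG132 and 1157, 993 and 1332 FPKM in the controls (4.88, SE 0.35, adjusted p 7.89e-05). SFRP1, a secreted antagonist of WNT, had 635, 777 and 649.6 FPKM after reversine, 69.8, 61.6 and 58.9 FPKM after MG132 and 812, 622 and 848 FPKM in the controls (3.41, SE 0.14, adjusted p 8.32e-06). FZD8, a WNT receptor, and LRRC17 differed by 3.14 and 3.20 (adjusted p 0.000629 and 8.32e-06), MEGF6 and the transcript RP11-295K3.1 by 3.12 and 3.80 (adjusted p 0.00124 and 0.00265). With the 6 libraries alone the calls of FZD8, MEGF6 and RP11-295K3.1 were lost (adjusted p 0.0523, 0.0522 and 0.0741). CST2, a secreted inhibitor of cysteine proteases, had 7.38, 12.2 and 12.7 FPKM after reversine against 0.44, 0.2 and 0.43 FPKM after MG132 and 0.94, 0.39 and 0.84 FPKM in the controls (3.09, SE 0.20, adjusted p 5.74e-05).

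On the MG132 side, the tubulin genes TUBB4A and TUBA4A had large differences. TUBB4A had 0.3, 0.82 and 1.56 FPKM after reversine, 48.9, 33.2 and 28.6 FPKM after MG132 and 0.17, 0.58 and 0.43 FPKM in the controls (-4.34, SE 0.28, adjusted p 5.2e-05). TUBA4A had 41.6, 61.1 and 70.2 FPKM after reversine and 602, 389 and 355 FPKM after MG132 (-2.93, SE 0.25, adjusted p 0.000208). CLU, a secreted chaperone, had 75.5, 63.9 and 79.6 FPKM in the controls, 181, 157 and 159 FPKM after reversine and 1027, 1570.1 and 1270.1 FPKM after MG132, called above control after both and -2.93 between them (SE 0.16, adjusted p 2.67e-05). IL36B, an interleukin-1 family cytokine, had 0.21, 0.39 and 0.26 FPKM after reversine and 6.99, 9.1 and 10.8 FPKM after MG132 (-2.94, SE 0.12, adjusted p 8.32e-06), the direction opposite to that of IL1B. ABHD3, a phospholipase, LURAP1L, and B4GALNT1, an enzyme of ganglioside synthesis, differed by -3.06, -2.89 and -2.87 (adjusted p 4.45e-05, 0.000253 and 6.97e-05). Of the epithelial keratins, KRT18 had 599, 595 and 629.6 FPKM after reversine, 183, 217 and 200.1 FPKM after MG132 and 427, 472 and 426 FPKM in the controls (1.60, SE 0.11, adjusted p 5.74e-05). THY1, a surface marker of fibroblasts, had 326, 691 and 755 FPKM after reversine, 109.8, 57.7 and 52.2 FPKM after MG132 and 980.2, 877 and 1042 FPKM in the controls (2.98, SE 0.36, adjusted p 0.00125, 0.0663 with the 6 libraries alone). The 10 fibroblast and mesenchymal markers summed to 3779 to 12365 FPKM in the reversine libraries and 6051 to 14971 FPKM in the MG132 libraries, and 2 of the 9 tested were called, both higher after reversine. The part of such cells in these results was not tested.

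Ribosomal and mitochondrial genes were examined in the same way. None of 61 cytosolic ribosomal protein genes and none of 36 nuclear-encoded respiratory chain genes was called by limma (medians -0.20 and -0.07), while 6 and 7 of them had an unadjusted p under 0.05, beside 9241 of all genes tested. The ribosomal median changed sign without the falling libraries (0.22). Without MG132 1, 19 of the ribosomal genes were called higher after MG132, beside 8250 of all 30712 genes tested. Of the respiratory chain genes, 6 were called higher after MG132 without MG132 1 and 3 higher after reversine without reversine 1. Their median was above 0 in 6 of the 18 alternatives, 0.16 without the falling libraries and 0.11 with median-ratio scaling among them. Of 30 genes of ribosome biogenesis, 3 were called higher after reversine, against 3.52% of all genes tested (median -0.10, 0.24 without the falling libraries). That count was 2 when MG132 2, MG132 3, reversine 2 or reversine 3 was left out, and 6 were called higher after MG132 without MG132 1. Of the 13 mitochondrially encoded genes 1 was called, MT-CO2, higher after reversine (0.47, adjusted p 0.0337). The MT-CO2 call was lost without MG132 3, the library with 20.2% mitochondrial transcripts (adjusted p 0.103), without reversine 1 and without reversine 3 (adjusted p 0.0604 and 0.096), and 3 of the 13 were called higher after reversine without MG132 1.

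**Figure D5:**
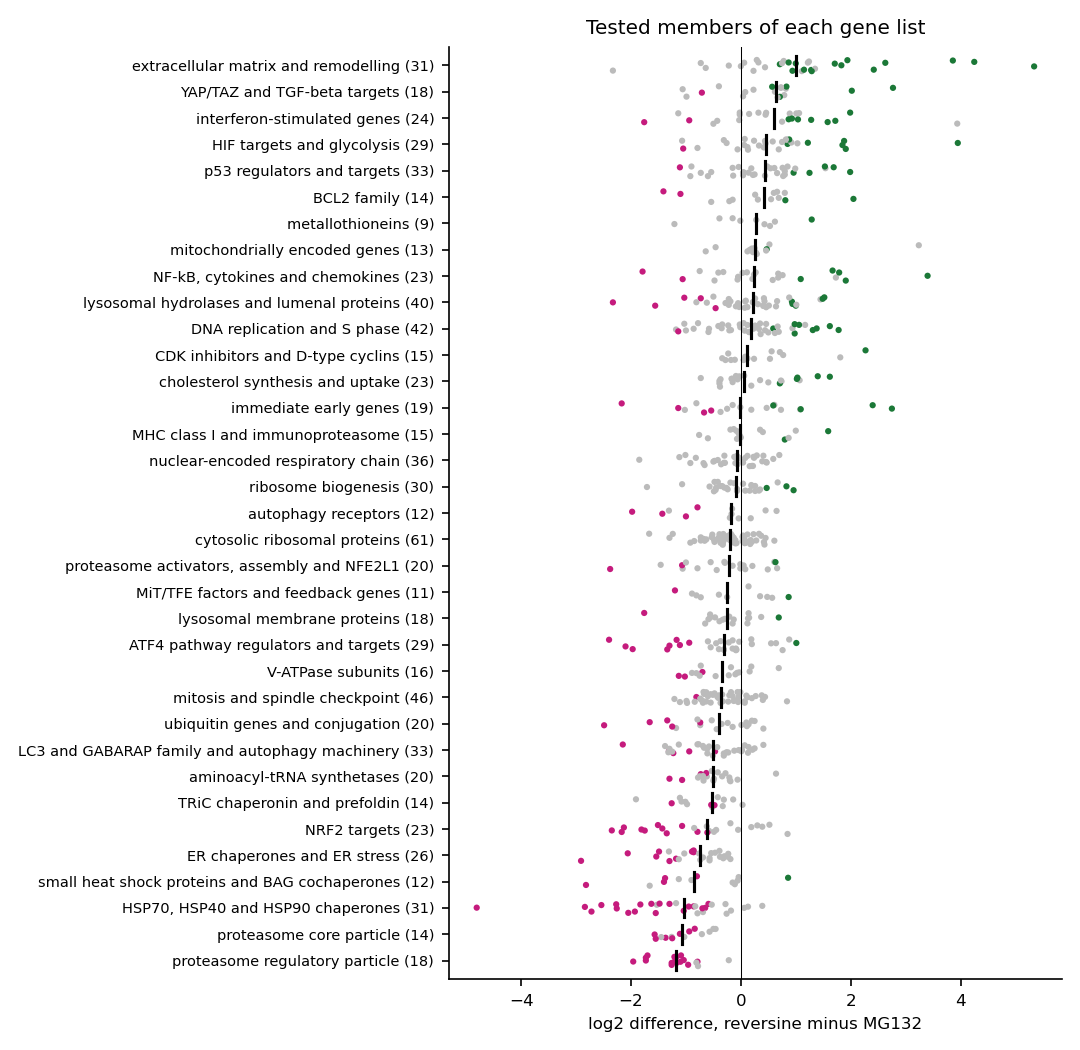
Each row is a gene list with its number of tested genes, and each point a gene, placed by its log2 difference of reversine minus MG132; green points were called higher after reversine, magenta points higher after MG132, grey points not called, and black bars are list medians. The medians run from -1.17 for the regulatory particle of the proteasome to 1.00 for extracellular matrix genes.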

How the data were processed

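RNA-seq libraries of hTERT-RPE1 cells were compared from 1 deposited table of gene-level FPKM values, which per the submitters' processing notes rest on Bowtie 1.0.0 and RSEM 1.2.6 with the human builds hg19 and GRCh37. The unit of the deposited table was read from its values, since its columns sum to different totals, and FPKM hide the number of reads, so the depth behind each value is unknown. Relative estimates such as these can divide reads between near-identical genes and depend on GC content and transcript length.

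Libraries were grouped by the treatment in their labels, and no 2 libraries were identical. Genes with at least 1 FPKM in 3 or more of the 12 libraries were tested on log2(FPKM + 1), with a pseudocount of 1, by limma 3.58.1 with a trended prior variance in R 4.3.3, in 1 fit of all 4 groups. P-values were adjusted by the Benjamini-Hochberg method over all genes tested, with a threshold of 0.05. The procedure was also run on simulated data with 200 changed genes and independent noise in each library. Those data held no GC classes, so that run says nothing about how the calls depend on the libraries in the fit. GC content, length and gene type came from GENCODE v29 for 82.5% of the genes tested. GC slopes, which set the technical classes, used the 19768 rows above 0 in every library, a choice made after the values were seen. Replicate numbers follow the order of the records and pair nothing.

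The treatments compared, the gene lists and the list of genes always named were chosen with earlier results of these data known. Also named were the 12 largest differences in each direction among called genes whose higher group averaged at least 2 FPKM and whose groups did not overlap. These also had a symbol of their own, 1 sign in both GC classes (which the lack of overlap already fixes), and a call whichever reversine or MG132 library was left out. Of each list, up to 4 called members with the smallest adjusted p were added, which made 152 genes, not all of them printed. Promoters came from RefSeq (GRCh38.p14), with no coordinate taken from the deposited table. Alternatives changed the pseudocount, the filter, the scaling, the libraries in the fit, the variance trend, and the handling of GC content, of zeros and of rows that share a symbol; the last 2 were chosen after the values were seen.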

Additional observations from a re-analysis of the deposited data

How the results depend on the processing

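Of all 2000 called genes, 836 kept the call in each of the 6 fits that left out 1 library. Of the 135 genes named by rule and called, 57 kept the call under all 18 alternatives and none changed sign. Part of that was set by the choice of genes, since some were chosen for a call in those 6 fits and others for a small adjusted p. Calls were lost most often with the 6 libraries alone (77) and without the falling libraries (38), then without MG132 3 (23), MG132 2 (21), reversine 3 (19) or reversine 2 (18), and at most 8 were lost under any other alternative. The number of genes called, 2000 (1082 higher after reversine and 918 higher after MG132), was 256 (154 and 102) with the 6 libraries alone and 945 (630 and 315) without the falling libraries. It was 3147 with correction for GC content and length (1809 higher after reversine) and 3496 (1763 and 1733) with the GC class as a term. It was 6862 (1942 and 4920) over rows above 0 in all libraries and 4364 (2288 and 2076) with both, 2 alternatives added after the values were seen. Leaving out 1 library gave 965 to 17101 calls, 580 to 8851 higher after reversine and 382 to 8250 higher after MG132. The cause of these differences was not tested. No paired analysis was possible because the replicate numbers follow the order of the records.

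Some genes that were not called changed sign. ATF3 (-0.15) was 0.02 with median-ratio scaling and 0.04 without the falling libraries. NFE2L1 (0.05) was -0.20 with the class term, -0.25 without the falling libraries, and -0.15 to 0.33 when 1 library was left out. HSPA1B as a single row ran from -2.61 to 0.42 and RRM2 from -0.07 to 0.12 when 1 library was left out. Without the falling libraries TFEB was 0.55, TOP2A 0.14 and TTK 0.09. The cause was not tested. Of 41 lists, markers included, 14 had a median that changed sign under some alternative, each with a median between -0.35 and 0.35. FPKM without counts leave the precision of low values unknown.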

Other observations

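Markers of other cell types were present at the following levels, each taken from 1 row of the table. The 9 markers of other epithelia, of which 8 were tested, summed to 79.2 to 159.9 FPKM in the reversine libraries and 54.3 to 59.9 FPKM in the MG132 libraries, and 1 of them was called, KRT7, a keratin of simple epithelia, higher after reversine (1.57). The 7 neuronal markers, of which 4 were tested, summed to 186 to 472 FPKM after reversine and 137 to 645 FPKM after MG132, and 1 was called, SNAP25, a protein of vesicle fusion, higher after reversine (1.05). The SNAP25 call was lost without reversine 2. TUBB3, a tubulin, has a second row left out of these sums: its 2 rows together read 182, 420.0 and 467 FPKM after reversine and 643, 332 and 293 FPKM after MG132. The 8 blood markers, of which 5 were tested, are mainly the lysosomal protein CD68 here and summed to 81.3 to 140.1 FPKM after reversine and 77 to 144 FPKM after MG132, and none was called by limma, with 2 at an unadjusted p under 0.05. Of the 11 tested markers of pigment epithelium, KRT8 and KRT18 were called higher after reversine and CRYAB, a small heat shock protein, higher after MG132. Their part in the other results was not tested.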
